A study of Mus musculus with 8 samples.

Results

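The endothelial genes of the islet are 32 genes that mark or build the inner lining of blood vessels, and they were taken by symbol from a count table of 24537 genes. All 32 were in the table and all 32 passed the filter on low counts. They hold 8 genes of cell junctions and the cell surface, 6 receptors or receptor partners of the VEGF and angiopoietin systems, 4 other receptors, 3 transcription factors, 4 secreted or matrix proteins, and 7 genes of fenestrae, signalling and other roles. RNA was measured by sequencing of polyadenylated RNA in 8 samples of pancreatic islets, the small endocrine organs of the pancreas. Islets came from male Wfs1KO mice (4 samples) and male WT mice (4 samples), all 12 weeks old, and no animal was treated. Wfs1 encodes wolframin, a protein of the endoplasmic reticulum membrane, and its loss causes Wolfram syndrome, in which diabetes is a main feature. The labels give neither the strain nor the knockout allele, nor whether a sample pooled islets of several mice. The p-values therefore measure the spread between these samples only.

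Islets are among the most densely vascularized tissues, and their capillaries are thin and perforated by fenestrae, small pores closed by a diaphragm. Endocrine cells release VEGF-A, which acts on VEGF receptors of the endothelium and keeps these capillaries dense and fenestrated. Angiopoietins act on the receptor Tek, also called Tie2, and steady the vessel wall, while transcription factors of the ETS and SOXF families keep up endothelial gene expression. Isolated islets keep part of their capillary endothelium, so that RNA of whole islets holds both endocrine and endothelial transcripts. In such bulk samples, more endothelial cells and more endothelial RNA per cell cannot be told apart.

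In Wfs1KO islets 21 of the 32 genes rose, none fell, and 11 did not pass the test (edgeR's quasi-likelihood test, Benjamini-Hochberg adjusted p under 0.05, here a call). Over all 15733 tested genes 10.4% were called higher in Wfs1KO islets and 8.49% lower, 18.9% in all. All 32 log2 fold changes of Wfs1KO over WT were positive, with a median of 0.44, against a median of 0.01 over all tested genes, of which 52.6% were positive. At an unadjusted p under 0.05, 24 of the 32 were higher and 0 lower in edgeR, and DESeq2 and limma-voom also called 0 of them lower. The 4 Wfs1KO libraries were all above the 4 WT libraries for 21 of the 32 genes, against 12.3% of all tested genes, and below them for none. Summed over the 32 genes, the level was 1462, 1286, 1491 and 1384 CPM (counts after each library is brought to the same size) in Wfs1KO replicates 1 to 4, against 990.0, 981, 1073 and 992 CPM in WT replicates 1 to 4. The lowest Wfs1KO library was thus above the highest WT library, and the ratio of the means was 1.39.

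**Figure D1:**
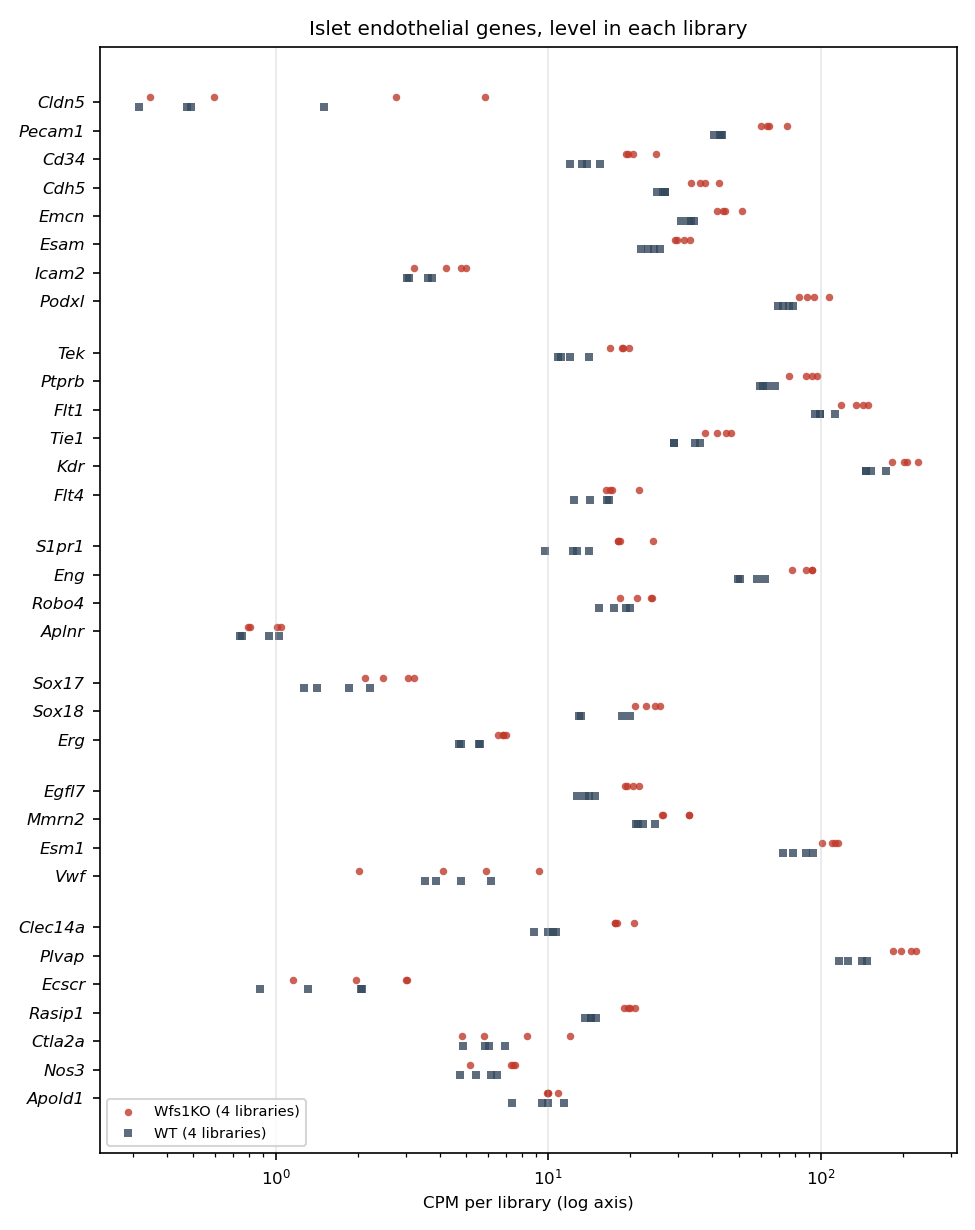
CPM of each of the 32 endothelial genes in each library on a log axis, with Wfs1KO libraries and WT libraries as separate colours and the genes grouped by role. For 21 genes the 4 Wfs1KO points lie above all 4 WT points, while the points of low genes such as Cldn5, Vwf, Ecscr and Aplnr are mixed.

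The libraries held 16395855 to 27057617 exon counts in Wfs1KO islets and 15810830 to 21552731 in WT islets. Wfs1 itself was at 101, 105, 125 and 98.9 CPM in Wfs1KO replicates 1 to 4, against 182, 156, 190.1 and 188 CPM in WT replicates 1 to 4 (log2 fold change -0.74, SE 0.08, adjusted p = 5.06e-05), so the transcript was lower but not lost. The first principal component (38.0% of variance) parted replicates 1 and 2 from replicates 3 and 4 in both genotypes, and the second (28.3%) parted the genotypes. For this reason values within replicates 1 and 2 and within replicates 3 and 4 are given beside the pooled result further on.

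Levels of different genes were compared per kilobase of exon length. Plvap, which forms the diaphragms of fenestrae, was the highest of the 32, with 102 CPM per kb in Wfs1KO islets and 66.2 in WT islets, and in WT islets it stood above 95.7% of all tested genes on this scale. Next came Esm1, a proteoglycan secreted by endothelial cells, with 52.3 CPM per kb in Wfs1KO islets and 39.7 in WT islets. Kdr, the main signalling receptor for VEGF-A, had 37.7 CPM per kb in Wfs1KO islets and 28.5 in WT islets. The defining markers Pecam1, Cdh5 and Kdr were present in every library. Aplnr, the apelin receptor, was the lowest, with 0.257 CPM per kb in Wfs1KO islets and 0.244 in WT islets. Cldn5, Vwf and Sox17 stood just above it, so the tight-junction gene Cldn5 and the blood-clotting gene Vwf of larger vessels were near the bottom.

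The promoter letters of some of these genes are shown because ETS factors, among them the member Erg, bind a short core found in many endothelial promoters. RefSeq windows from 250 bases before to 50 bases after the start site (GRCm38.p6, the build of mm10) matched 17 of the 32 genes. They were searched on both strands for CNGGAAG, a form of the ETS core, in which N is any base. At least 1 match was found in 12 of the 17 windows (70.6%), against 38.9% of the 11924 tested genes that have a window and 34.0% of all 17594 windows. None of these matches overlapped a match of the 3 other motifs searched, which were AACAAT for SOX factors, AGATAA for GATA factors and TATAAA for the TATA box. Those were in 3, 2 and 3 of the 17 windows, against 5.60%, 6.28% and 7.25% of the windows of tested genes. Clec14a is printed as the called member with the largest log2 fold change, Egfl7 and Tie1 as members with a pair of matches close together, and Kdr as an abundant receptor whose window holds no match. Each is written 5′ to 3′ on the strand of its gene, with matches in capitals.
Clec14a, chr12:58269209-58269508, minus strand: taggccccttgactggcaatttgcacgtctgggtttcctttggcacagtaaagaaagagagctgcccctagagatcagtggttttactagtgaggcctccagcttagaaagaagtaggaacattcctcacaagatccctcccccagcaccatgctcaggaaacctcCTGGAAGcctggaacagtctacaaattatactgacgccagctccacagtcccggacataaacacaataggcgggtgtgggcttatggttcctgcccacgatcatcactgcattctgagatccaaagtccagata
Egfl7, chr2:26583615-26583914, plus strand: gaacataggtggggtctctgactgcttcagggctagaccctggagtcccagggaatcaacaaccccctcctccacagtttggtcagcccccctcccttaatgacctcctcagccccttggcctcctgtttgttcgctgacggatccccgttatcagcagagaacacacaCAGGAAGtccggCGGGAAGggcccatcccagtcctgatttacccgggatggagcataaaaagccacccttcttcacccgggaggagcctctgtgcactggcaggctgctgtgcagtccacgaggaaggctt
Tie1, chr4:118489800-118490099, minus strand: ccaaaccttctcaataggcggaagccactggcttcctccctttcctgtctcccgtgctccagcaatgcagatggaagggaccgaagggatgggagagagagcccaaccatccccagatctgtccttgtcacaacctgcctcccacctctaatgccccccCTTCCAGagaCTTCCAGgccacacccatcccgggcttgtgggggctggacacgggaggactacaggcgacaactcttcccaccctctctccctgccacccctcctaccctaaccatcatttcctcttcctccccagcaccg
Kdr, chr5:75978406-75978705, minus strand: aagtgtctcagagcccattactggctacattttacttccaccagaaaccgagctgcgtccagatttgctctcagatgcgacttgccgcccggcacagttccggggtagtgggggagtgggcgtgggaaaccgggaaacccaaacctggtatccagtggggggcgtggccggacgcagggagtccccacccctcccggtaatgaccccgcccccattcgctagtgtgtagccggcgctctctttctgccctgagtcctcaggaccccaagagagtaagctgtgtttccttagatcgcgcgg
The match of Clec14a begins 84 bases before the start site, those of Egfl7 81 and 69 bases before it, and those of Tie1 91 and 81 bases before it. The start site used for the Kdr window lies 27 bases from the one in the count table. A match is a description of the letters and not a bound site, and a window without one says nothing of the factor. Apold1, Ctla2a, Flt4 and Robo4 held a match and did not pass, and the other genes with a match rose. Eng, Esm1, Kdr and Tek held none and rose, and Cldn5 held none and did not pass. Whether the matches had a part in the rise was not tested.

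Of the 6 receptors and receptor partners of the VEGF and angiopoietin systems 5 rose, with a median log2 fold change of 0.42, and Flt4 did not pass. Kdr (VEGFR2, chr5:75933270-75978428 in mm10) had 202, 182, 227 and 207 CPM in Wfs1KO replicates 1 to 4, against 152, 147, 172 and 146 CPM in WT replicates 1 to 4 (log2 fold change 0.40, SE 0.07, adjusted p = 0.00164). All 4 Wfs1KO libraries were above all 4 WT libraries. Flt1 (VEGFR1, chr5:147562196-147725988), a receptor that also acts as a trap for VEGF-A, had 134, 119, 148 and 143 CPM in Wfs1KO replicates 1 to 4, against 99.4, 99.5, 113 and 95.1 CPM in WT replicates 1 to 4 (log2 fold change 0.42, SE 0.07, adjusted p = 0.00129). Here too the genotypes were apart, by a small margin between Wfs1KO replicate 2 and WT replicate 3. Flt4 (VEGFR3), the receptor for VEGF-C, had 21.5, 16.3, 17.1 and 16.8 CPM in Wfs1KO islets, against 16.4, 14.3, 16.7 and 12.4 CPM in WT islets (log2 fold change 0.27, adjusted p = 0.114). Wfs1KO replicate 1 was far above the other 3 Wfs1KO libraries, of which replicate 2 lay within the WT range and replicates 3 and 4 just above it.

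The angiopoietin side showed the largest rise of this group. Tek, the angiopoietin receptor Tie2 (chr4:94739289-94874976), had 19.7, 16.8, 18.8 and 18.7 CPM in Wfs1KO replicates 1 to 4, against 10.8, 12.01, 14.1 and 11.1 CPM in WT replicates 1 to 4 (log2 fold change 0.63, SE 0.09, adjusted p = 3.53e-04). The groups did not overlap. Ptprb, the phosphatase VE-PTP that restrains Tek, had 88.4, 76.6, 96.99 and 92.8 CPM in Wfs1KO islets, against 61.3, 63.4, 67.9 and 59.9 CPM in WT islets (log2 fold change 0.49, SE 0.07, adjusted p = 3.37e-04), and every Wfs1KO library was above every WT library. Tie1, the partner receptor of Tek, had 46.8, 41.5, 44.7 and 37.5 CPM in Wfs1KO islets, against 28.9, 28.8, 36.1 and 34.5 CPM in WT islets (log2 fold change 0.41, SE 0.09, adjusted p = 0.00526). Its lowest Wfs1KO library, replicate 4, was only a little above the highest WT library.

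Of the 8 genes of junctions and the cell surface 6 rose, with a median log2 fold change of 0.49. Pecam1 (CD31, chr11:106654213-106715281), which joins neighbouring endothelial cells, had 75.4, 63.2, 64.5 and 60.5 CPM in Wfs1KO replicates 1 to 4, against 40.7, 43.00, 43.3 and 42.6 CPM in WT replicates 1 to 4 (log2 fold change 0.64, SE 0.07, adjusted p = 3.14e-05). The WT libraries lay close together and all 4 Wfs1KO libraries were above them. Cdh5 (VE-cadherin, chr8:104101625-104144502), the cadherin of endothelial junctions, had 42.4, 33.4, 37.6 and 36.1 CPM in Wfs1KO islets, against 26.9, 24.99, 26.3 and 26.8 CPM in WT islets (log2 fold change 0.51, SE 0.07, adjusted p = 2.78e-04). Emcn (endomucin), a sialomucin of capillaries and veins, had 41.7, 44.3, 51.4 and 43.6 CPM in Wfs1KO islets, against 34.2, 32.9, 30.7 and 33.5 CPM in WT islets (log2 fold change 0.46, SE 0.07, adjusted p = 4.57e-04). Both were apart between genotypes in every library. Cd34, a surface sialomucin, averaged 21.02 ± 2.54 CPM in Wfs1KO islets and 13.7 ± 1.41 CPM in WT islets (SD, n = 4 each, log2 fold change 0.62, SE 0.10, adjusted p = 6.17e-04). Esam, an adhesion molecule of endothelial tight junctions, averaged 30.9 ± 1.84 CPM in Wfs1KO islets and 23.8 ± 1.63 CPM in WT islets (log2 fold change 0.37, SE 0.07, adjusted p = 0.00164). Podxl, a sialomucin of the luminal surface that is also known from kidney podocytes, had 88.5, 83.3, 107 and 94.6 CPM in Wfs1KO islets, against 72.8, 69.7, 79.02 and 76.1 CPM in WT islets (log2 fold change 0.33, SE 0.07, adjusted p = 0.006797). Wfs1KO replicate 3 was the highest and Wfs1KO replicate 2 came near WT replicate 3, without overlap.

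The other two genes of the group did not pass. Icam2, a ligand of leukocyte integrins, had 4.797, 4.98, 4.21 and 3.22 CPM in Wfs1KO islets, against 3.63, 3.75, 3.04 and 3.09 CPM in WT islets (log2 fold change 0.35, adjusted p = 0.187), and the groups overlapped. Cldn5 (claudin-5), a barrier protein of tight junctions, had 5.85, 2.76, 0.346 and 0.594 CPM in Wfs1KO replicates 1 to 4, against 0.315, 1.501, 0.473 and 0.491 CPM in WT replicates 1 to 4 (log2 fold change 1.82, SE 0.94, adjusted p = 0.242). Its fold change was the largest of the 32 and had the largest SE, and Wfs1KO replicates 1 and 2 were high while replicates 3 and 4 lay within the WT range.

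Among the 4 other receptors 2 rose. Eng (endoglin, chr2:32646595-32682669), a co-receptor for BMP9 and other TGF-β family ligands, had 92.4, 78.1, 92.6 and 87.8 CPM in Wfs1KO replicates 1 to 4, against 50.6, 49.6, 62.2 and 58.2 CPM in WT replicates 1 to 4 (log2 fold change 0.67, SE 0.08, adjusted p = 7.28e-05). S1pr1, the receptor for sphingosine 1-phosphate that steadies the endothelial barrier, had 24.3, 17.95, 18.3 and 17.96 CPM in Wfs1KO islets, against 9.72, 14.1, 12.4 and 12.8 CPM in WT islets (log2 fold change 0.69, SE 0.13, adjusted p = 0.00234). For both genes the genotypes were apart in every library, and Wfs1KO replicate 1 was the highest for S1pr1. Robo4, a receptor that stabilizes vessels, had 23.9, 18.3, 24.00 and 21.2 CPM in Wfs1KO islets, against 17.4, 19.97, 19.3 and 15.4 CPM in WT islets (log2 fold change 0.28, SE 0.10, adjusted p = 0.0711). Wfs1KO replicate 2 was inside the WT range, and without that library the adjusted p was 0.0229 (log2 fold change 0.36). Aplnr, the apelin receptor, had 1.05, 1.02, 0.808 and 0.792 CPM in Wfs1KO islets, against 0.946, 0.7504, 0.743 and 1.03 CPM in WT islets (log2 fold change 0.08, adjusted p = 0.902), and the groups overlapped.

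Of the 3 transcription factors 2 rose, both less securely than most of the surface genes. Sox18, a SOXF factor of endothelial development, had 25.7, 20.7, 24.7 and 22.8 CPM in Wfs1KO replicates 1 to 4, against 12.98, 13.2, 18.6 and 19.9 CPM in WT replicates 1 to 4 (log2 fold change 0.54, SE 0.14, adjusted p = 0.0182). The genotypes did not overlap, but WT replicates 3 and 4 came near the Wfs1KO libraries, and the call was lost without Wfs1KO replicate 1 (adjusted p = 0.0552) and without Wfs1KO replicate 3 (adjusted p = 0.0514). Erg, an ETS factor that marks endothelial nuclei, had 6.83, 6.53, 6.81 and 6.98 CPM in Wfs1KO islets, against 5.57, 5.599, 4.79 and 4.71 CPM in WT islets (log2 fold change 0.39, SE 0.12, adjusted p = 0.0289). All Wfs1KO libraries were again above all WT libraries. The call of Erg was lost in DESeq2 (adjusted p = 0.0559) and with the replicate number as a block (adjusted p = 0.0611). It was also lost without any 1 of Wfs1KO replicates 1, 2, 3 and 4 and WT replicates 3 and 4 (adjusted p 0.0502 to 0.0800), while its log2 fold change stayed between 0.35 and 0.43. Sox17, a SOXF factor of arterial endothelium, had 3.22, 3.05, 2.48 and 2.13 CPM in Wfs1KO islets, against 1.42, 1.27, 2.23 and 1.87 CPM in WT islets (log2 fold change 0.69, SE 0.24, adjusted p = 0.0644). One WT library, replicate 3, lay inside the Wfs1KO range, and leaving it out gave a call (log2 fold change 0.84, adjusted p = 0.0459), as did leaving out Wfs1KO replicate 4 (log2 fold change 0.78, adjusted p = 0.0486).

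Of the 4 secreted and matrix genes 3 rose. Egfl7, a matrix protein that guides vessel tubes and whose gene hosts the endothelial microRNA miR-126, had 21.5, 20.5, 19.1 and 19.4 CPM in Wfs1KO replicates 1 to 4, against 13.7, 14.8, 12.8 and 14.1 CPM in WT replicates 1 to 4 (log2 fold change 0.54, SE 0.07, adjusted p = 1.95e-04). Esm1 (endocan, chr13:113209659-113218104), which is induced by VEGF, had 110.0, 101, 113 and 115 CPM in Wfs1KO islets, against 93.1, 88.1, 79.1 and 72.6 CPM in WT islets (log2 fold change 0.40, SE 0.08, adjusted p = 0.00212). For both the genotypes were apart in every library. Mmrn2 (multimerin-2), a matrix ligand of Clec14a, had 32.9, 26.3, 32.7 and 26.1 CPM in Wfs1KO islets, against 21.4, 22.2, 24.6 and 20.9 CPM in WT islets (log2 fold change 0.41, SE 0.09, adjusted p = 0.00569). Wfs1KO replicates 1 and 3 were well above WT, and replicates 2 and 4 just above WT replicate 3. Vwf (von Willebrand factor), which endothelial cells store and platelets bind, had 9.21, 5.903, 2.02 and 4.107 CPM in Wfs1KO islets, against 3.89, 6.18, 4.79 and 3.53 CPM in WT islets (log2 fold change 0.24, SE 0.42, adjusted p = 0.7600). Wfs1KO replicate 1 was the highest of all libraries and Wfs1KO replicate 3 the lowest, and without Wfs1KO replicate 1 the log2 fold change was -0.18.

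Among the 7 genes of fenestrae, signalling and other roles 3 rose. Clec14a (chr12:58264720-58269258), a C-type lectin of the endothelial surface, had 17.5, 17.8, 20.6 and 17.5 CPM in Wfs1KO replicates 1 to 4, against 10.7, 9.99, 8.85 and 10.4 CPM in WT replicates 1 to 4 (log2 fold change 0.87, SE 0.09, adjusted p = 1.71e-05). This was the largest log2 fold change among the called members, and every Wfs1KO library was far above every WT library. Plvap (chr8:71497753-71511769), the fenestra gene, had 213, 184, 223 and 196 CPM in Wfs1KO islets, against 126, 117, 147 and 141 CPM in WT islets (log2 fold change 0.62, SE 0.08, adjusted p = 1.63e-04). Rasip1, a protein needed to open vessel tubes, had 18.9, 20.8, 19.9 and 19.6 CPM in Wfs1KO islets, against 14.9, 14.4, 13.6 and 14.3 CPM in WT islets (log2 fold change 0.47, SE 0.07, adjusted p = 3.17e-04). The genotypes did not overlap for either gene. Nos3, the endothelial nitric oxide synthase, had 7.56, 7.31, 7.44 and 5.15 CPM in Wfs1KO islets, against 4.73, 6.46, 6.15 and 5.45 CPM in WT islets (log2 fold change 0.27, adjusted p = 0.2404). Wfs1KO replicates 1, 2 and 3 were above WT and replicate 4 within it. Apold1, an early-response gene of vessels, averaged 10.2 ± 0.4697 CPM in Wfs1KO islets and 9.54 ± 1.66 CPM in WT islets (log2 fold change 0.10, adjusted p = 0.636). Ecscr, a surface protein of endothelial cells, had 3.05, 3.0, 1.15 and 1.98 CPM in Wfs1KO islets, against 1.31, 2.08, 0.878 and 2.06 CPM in WT islets (log2 fold change 0.54, adjusted p = 0.321). Ctla2a, related to the propeptides of cysteine proteases, had 11.97, 8.32, 4.85 and 5.79 CPM in Wfs1KO islets, against 4.89, 6.93, 6.08 and 5.84 CPM in WT islets (log2 fold change 0.40, adjusted p = 0.336). For Ecscr and Ctla2a the groups overlapped, and Wfs1KO replicates 1 and 2 were the highest of the 4 Wfs1KO libraries.

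**Figure D2:**
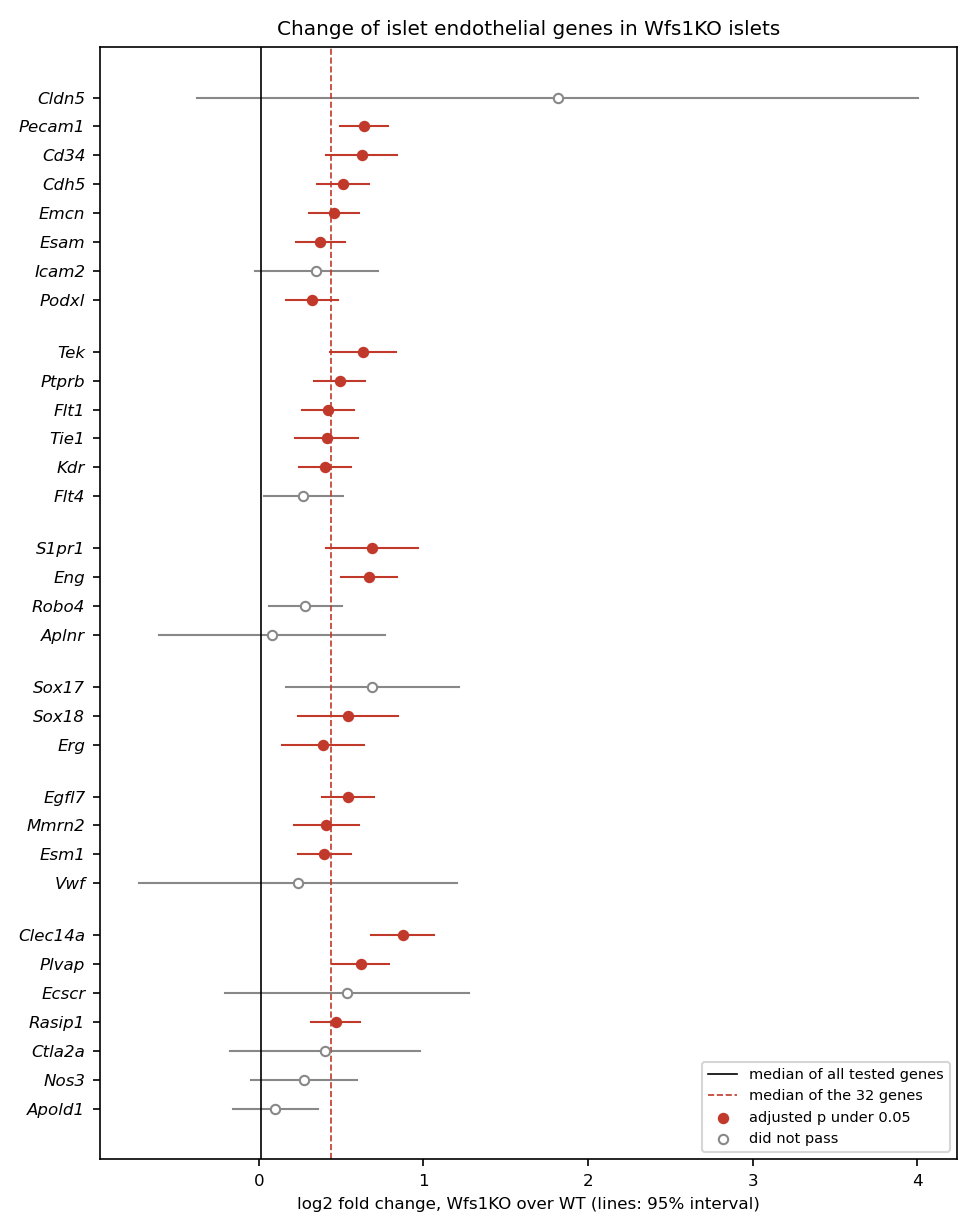
Log2 fold change of Wfs1KO over WT for each of the 32 genes with its 95% confidence interval, called genes marked apart from genes that did not pass, and vertical lines at the median of the 32 genes and at the median over all tested genes. Every point lies above 0, called genes lie between 0.33 (Podxl) and 0.87 (Clec14a), and the interval of Cldn5 is the widest.

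Some counts may hold reads of neighbouring genes, since no strand option was given in the counting. Exons of Cd34, Ecscr, Egfl7, Eng, Nos3, Rasip1 and Sox17 overlap exons of a gene on the other strand in GENCODE M21, among them Agpat2 at Egfl7, Fpgs at Eng and Atg9b at Nos3. On their own strand, Ctla2a shares exons with Gm49391 and Gm49393, Egfl7 with Gm20532 and Mir126a, and Rasip1 with Izumo1. Ctla2a also has the close paralog Ctla2b. How reads shared by such genes were counted is not given in the sources used here, so these values are less certain.

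The 32 genes varied little within a genotype, with a median coefficient of variation of 9.93% in Wfs1KO islets and 10.9% in WT islets. Some low genes stood apart, with coefficients of 107% for Cldn5, 57.4% for Vwf, 41.2% for Ctla2a and 39.5% for Ecscr over the Wfs1KO libraries. Wfs1KO replicate 1 had the highest Wfs1KO value for 18 of the 32 genes, against 3, 9 and 2 genes for replicates 2, 3 and 4. When each gene was set against the median member of its library, on the log2(CPM + 0.1) scale, only Pecam1 separated the genotypes without overlap, 1 of 32. Of all tested genes 64.5% did so. That scale is centred on the members themselves, whose median was 4.29 to 4.60 in Wfs1KO libraries and 3.85 to 3.95 in WT libraries. The centring thus moves unchanged genes apart and brings the members together. Both shares depend on it, and the first only describes how evenly the members moved.

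Within replicates 1 and 2 alone, 21 of the 32 genes were called higher, against 9.47% of all genes tested in that fit, 31 had a positive log2 fold change and the median was 0.48. Within replicates 3 and 4 alone, 17 of the 31 genes tested were called higher, against 6.35% of all genes tested in that fit, 28 were positive and the median was 0.43. Clec14a had log2 fold changes of 0.75 and 0.97 in these 2 subsets, and Pecam1 0.71 and 0.53. Esm1 was larger in replicates 3 and 4 (0.58) than in replicates 1 and 2 (0.20, adjusted p = 0.0925). Tie1 (0.60 and 0.21), Sox18 (0.81 and 0.29) and Sox17 (1.20 and 0.17) were larger in replicates 1 and 2. For Vwf (0.58 and -0.42) and Ctla2a (0.77 and -0.17) the sign differed. The difference between the subsets was not tested.

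**Figure D3:**
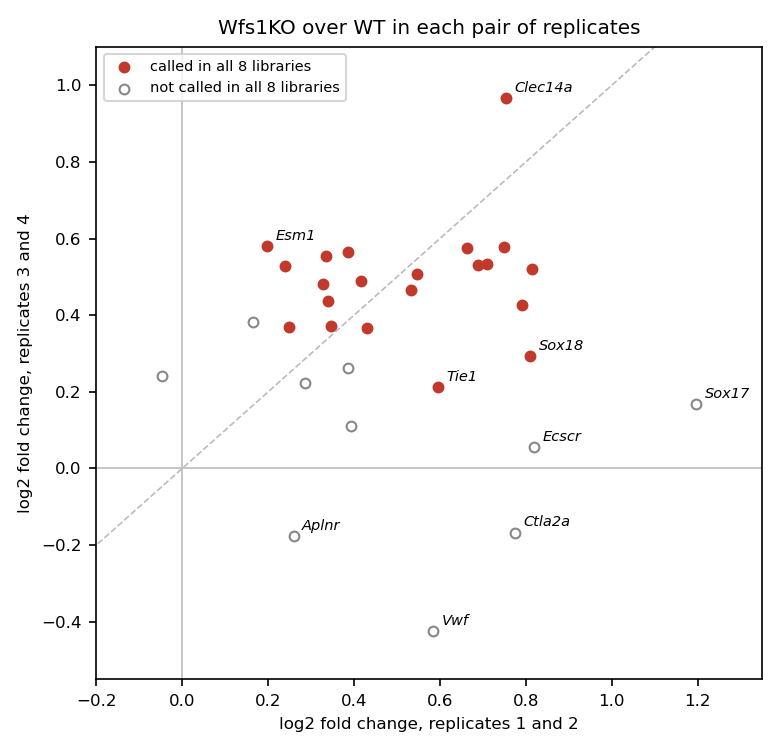
Log2 fold change of Wfs1KO over WT of each endothelial gene within replicates 1 and 2 (horizontal axis) and within replicates 3 and 4 (vertical axis), for the 31 genes tested in both. Most points lie above 0 on both axes, and Sox17, Vwf and Ctla2a lie far below the diagonal.

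Of 30 other endothelial genes tested, listed apart from the 32, 16 rose, 0 fell and 14 did not pass (edgeR, with 24 higher and 0 lower at an unadjusted p under 0.05), with a median log2 fold change of 0.39. DESeq2 and limma-voom also called 0 of the 30 lower. The log2 fold change was positive for 29 and negative for 1, Elk3, an ETS factor (-0.05, adjusted p = 0.606). Adgrl4 (ELTD1), an adhesion receptor of sprouting vessels, averaged 50.9 ± 4.74 CPM in Wfs1KO islets and 32.8 ± 2.53 CPM in WT islets (SD, n = 4 each, log2 fold change 0.63, SE 0.08, adjusted p = 7.36e-05). Adgrf5, an adhesion receptor with the highest CPM of this list (not corrected for length), averaged 131 ± 7.897 CPM in Wfs1KO islets and 91.4 ± 6.199 CPM in WT islets (log2 fold change 0.52, SE 0.06, adjusted p = 7.79e-05). Fli1, an ETS factor related to Erg, averaged 7.61 ± 1.42 CPM in Wfs1KO islets and 4.06 ± 0.774 CPM in WT islets (log2 fold change 0.92, SE 0.17, adjusted p = 0.00174). These 3 calls held without any single library, while those of Rasgrp3, Cd93, Nostrin, Fabp4 and Lmo2 were each lost without at least 4 of the 8 libraries, each left out singly.

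All 8 genes of the list named for fenestrae and caveolae, flask-shaped pits of the cell membrane, rose, with a median of 0.45. The list holds Cav1, Cav2, Cavin1, Cavin2, Ehd2, Ehd4, Pacsin2 and Aqp1. Plvap, the fenestra gene, is among the 32 genes and not in this list. Cav2, Ehd4 and Aqp1 lost the call without 6, 6 and 7 of the 8 libraries, each left out singly. Which cells these transcripts came from was not tested. Pacsin2, which bends the caveolar neck, averaged 47.2 ± 2.71 CPM in Wfs1KO islets and 33.2 ± 0.479 CPM in WT islets (log2 fold change 0.51, SE 0.06, adjusted p = 4.00e-05). Ehd2, an ATPase that holds caveolae at the membrane, averaged 14.7 ± 0.653 CPM in Wfs1KO islets and 9.71 ± 0.628 CPM in WT islets (log2 fold change 0.61, SE 0.08, adjusted p = 1.89e-04). Cavin2, a coat protein of caveolae, averaged 13.1 ± 1.54 CPM in Wfs1KO islets and 8.62 ± 0.749 CPM in WT islets (log2 fold change 0.61, SE 0.11, adjusted p = 0.00114). Ehd4, with the highest CPM of the 8, averaged 50.7 ± 4.000 CPM in Wfs1KO islets and 42.9 ± 4.45 CPM in WT islets (log2 fold change 0.24, adjusted p = 0.0463).

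The ligands and co-receptors of the member receptors did not move one way: of 15 tested 5 rose and 2 fell, with a median of 0.20. Pgf, a ligand of Flt1, had 34.5, 34.1, 35.4 and 39.1 CPM in Wfs1KO replicates 1 to 4, against 22.9, 22.3, 20.1 and 17.5 CPM in WT replicates 1 to 4 (log2 fold change 0.79, SE 0.08, adjusted p = 2.88e-05). Acvrl1 (ALK1), the BMP9 receptor that works with Eng, averaged 17.7 ± 1.23 CPM in Wfs1KO islets and 11.5 ± 1.24 CPM in WT islets (log2 fold change 0.63, SE 0.09, adjusted p = 2.80e-04). Nrp1, a co-receptor of Kdr, averaged 144 ± 10.7 CPM in Wfs1KO islets and 112 ± 5.697 CPM in WT islets (log2 fold change 0.36, SE 0.06, adjusted p = 0.00111), and Bmpr2 and Nrp2 also rose, the call of Nrp2 being lost without any 1 of Wfs1KO replicates 1 and 3 and WT replicates 1, 3 and 4 (adjusted p 0.0656 to 0.0986). Vegfa, the gene with the highest CPM of this list and the ligand of Kdr and Flt1, had 443, 474, 472 and 509 CPM in Wfs1KO islets, against 544, 613, 526 and 528 CPM in WT islets (log2 fold change -0.22, SE 0.07, adjusted p = 0.0378). The groups did not overlap, but the call was lost without any 1 of Wfs1KO replicates 1, 2 and 3 and WT replicates 1, 2 and 3 (adjusted p 0.0561 to 0.133). Angpt2, a ligand of Tek made by activated endothelium, had 10.2, 9.44, 7.21 and 8.66 CPM in Wfs1KO islets, against 12.3, 12.5, 10.8 and 12.4 CPM in WT islets (log2 fold change -0.43, SE 0.11, adjusted p = 0.0145), and its call held without any single library. With no scaling factor neither Vegfa nor Angpt2 was called, with log2 fold changes of -0.12 and -0.33.

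Of 12 arterial genes tested 6 rose and 1 fell, with a median of 0.30. Sema3g, a semaphorin of arterial endothelium, averaged 10.3 ± 0.939 CPM in Wfs1KO islets and 5.51 ± 0.8396 CPM in WT islets (log2 fold change 0.91, SE 0.12, adjusted p = 1.82e-04). Efnb2 (ephrin-B2), the classical arterial marker, averaged 18.6 ± 1.92 CPM in Wfs1KO islets and 12.7 ± 0.586 CPM in WT islets (log2 fold change 0.56, SE 0.09, adjusted p = 4.89e-04). Hey1, a target of Notch, averaged 6.27 ± 0.707 CPM in Wfs1KO islets and 3.42 ± 0.468 CPM in WT islets (log2 fold change 0.88, SE 0.15, adjusted p = 8.70e-04). Dll4, a Notch ligand of arterial and tip cells, averaged 20.1 ± 1.03 CPM in Wfs1KO islets and 23.6 ± 1.79 CPM in WT islets (log2 fold change -0.22, SE 0.07, adjusted p = 0.0419), and its call was lost with the replicate number as a block (adjusted p = 0.0584), with no scaling factor, and without any 1 of Wfs1KO replicates 1, 2 and 3 and WT replicates 1, 2 and 3 (adjusted p 0.0655 to 0.116). Notch1, the arterial gene with the highest CPM (not corrected for length), averaged 68.7 ± 5.12 CPM in Wfs1KO islets and 75.9 ± 7.103 CPM in WT islets (log2 fold change -0.14, adjusted p = 0.205). Of 5 venous and activated genes tested 3 rose, with Ephb4, the venous partner of Efnb2, at 14.6 ± 1.301 CPM in Wfs1KO islets and 9.93 ± 1.68 CPM in WT islets (log2 fold change 0.56, SE 0.11, adjusted p = 0.00342). Icam1, an adhesion molecule for leukocytes, had 9.24, 7.65, 5.25 and 3.56 CPM in Wfs1KO islets, against 2.15, 4.16, 2.57 and 2.01 CPM in WT islets (log2 fold change 1.25, SE 0.32, adjusted p = 0.0209). Its Wfs1KO replicate 1 was the highest, and the call was lost without Wfs1KO replicate 2 or WT replicate 1, 3 or 4 (adjusted p 0.0533 to 0.0658). Nr2f2 (COUP-TFII) had a log2 fold change of 0.53 and lost the call without 5 of the 8 libraries, each left out singly.

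Tip cell genes, which mark the cells that lead a vessel sprout, were split as well, with 4 of 9 higher and 2 lower and a median of 0.32. The genes that fell were Angpt2 and Dll4, given above. Adm (adrenomedullin), a peptide that endocrine and other cells also make, had 2.21, 1.74, 0.923 and 1.19 CPM in Wfs1KO islets, against 0.2102, 0.5195, 0.473 and 0.245 CPM in WT islets (log2 fold change 2.09, SE 0.42, adjusted p = 0.003296). Pdgfb, by which endothelium recruits pericytes, averaged 16.5 ± 1.19 CPM in Wfs1KO islets and 13.4 ± 0.291 CPM in WT islets (log2 fold change 0.30, SE 0.08, adjusted p = 0.0135), and its call was lost without Wfs1KO replicate 1 (adjusted p = 0.0536). Of 6 lymphatic genes 0 were called in either direction by edgeR, with 1 higher and 0 lower at an unadjusted p under 0.05, a median of -0.18, and 1 called higher by DESeq2. Prox1, with the highest CPM of them and also a gene of endocrine cells, averaged 58.2 ± 0.646 CPM in Wfs1KO islets and 60.2 ± 5.900 CPM in WT islets (log2 fold change -0.05, adjusted p = 0.663). Of 10 basement membrane genes 4 rose and 0 fell, with a median of 0.26. Nid1 (nidogen-1), which links laminin and collagen IV, averaged 48.5 ± 3.03 CPM in Wfs1KO islets and 38.7 ± 2.51 CPM in WT islets (log2 fold change 0.33, SE 0.06, adjusted p = 0.00287), and its call held without any single library, while those of Lama4, Lama5 and Nid2 did not. Col4a1, with the highest CPM of this list (not corrected for length), averaged 148 ± 10.8 CPM in Wfs1KO islets and 146 ± 19.5 CPM in WT islets (log2 fold change 0.02, adjusted p = 0.883).

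Markers of pericytes and smooth muscle, the mural cells around vessels, were higher beside the endothelial genes: 7 of 11 tested rose and 0 fell, with a median of 0.54. Summed over the 12 genes of this list, the level was 385, 341, 375 and 358 CPM in Wfs1KO replicates 1 to 4, against 234, 222, 243 and 249.6 CPM in WT replicates 1 to 4, without overlap. Rgs5, a marker of pericytes, had 216, 202, 229.9 and 228 CPM in Wfs1KO islets, against 135, 119.9, 141 and 144 CPM in WT islets (log2 fold change 0.70, SE 0.07, adjusted p = 9.89e-06). Every Wfs1KO library was above every WT library. Myh11, smooth muscle myosin, averaged 25.9 ± 1.64 CPM in Wfs1KO islets and 16.9 ± 1.14 CPM in WT islets (log2 fold change 0.62, SE 0.07, adjusted p = 6.12e-05). Pdgfrb, the receptor for PDGF-B on pericytes, averaged 27.1 ± 2.46 CPM in Wfs1KO islets and 18.6 ± 1.904 CPM in WT islets (log2 fold change 0.54, SE 0.09, adjusted p = 6.68e-04). The part of mural cells in the endothelial result was not tested.

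Markers of the other cells that islet samples can hold were set beside these values. Stellate cell and fibroblast markers had 0 of 10 called, with summed levels of 53.4 to 128 CPM in Wfs1KO libraries and 43.3 to 111 CPM in WT libraries. Of these 10, 7 had a positive log2 fold change, with a median of 0.38 and a ratio of the means of 1.31. Macrophage markers had 0 of 11 called, with 117 to 276 CPM in Wfs1KO libraries and 112 to 184 CPM in WT libraries. Of these 11, 10 had a positive log2 fold change, with a median of 0.37 and a ratio of the means of 1.29. In both lists Wfs1KO replicate 1 was the highest library. Platelets also carry Pecam1 and Vwf, and their markers had 0 of 4 called, with summed levels of 2.71 to 14.7 CPM in Wfs1KO libraries and 3.63 to 7.56 CPM in WT libraries, and Itga2b, with the highest CPM (not corrected for length), averaged 3.94 ± 3.51 CPM in Wfs1KO islets and 2.48 ± 0.798 CPM in WT islets. Erythroid markers had 0 of 5 called, with 11.9 to 16.2 CPM in Wfs1KO libraries and 7.99 to 11.6 CPM in WT libraries, without overlap, a ratio of the means of 1.37 and a median log2 fold change of 0.54. Acinar markers had 0 of 11 called, with 9938 to 68525 CPM in Wfs1KO libraries and 32292 to 72389 CPM in WT libraries, and an acinar score as a covariate left 20 of the 32 endothelial genes called. Of the other non-endocrine lists, duct markers had 1 of 6 higher (Spp1), and the 1 mesothelial gene tested, Msln, was not called. In these lists edgeR, at an unadjusted p under 0.05, had 2 stellate or fibroblast, 0 macrophage, 0 platelet, 3 erythroid and 0 acinar genes higher, and 0 lower in each, and DESeq2 and limma-voom called 0 in each. Within replicates 1 and 2 alone, 8 of the 10 stellate cell and fibroblast markers were called higher and 7 acinar markers lower, and within replicates 3 and 4 alone 0 of either. No gene of these lists was at 0 in all 8 libraries. The part of these cell types in the endothelial values was not tested beyond these fits. The calls of Spp1 and Sst were each lost without at least 3 of the 8 libraries, each left out singly. All 7 beta cell markers fell (median -0.79), while 2 of 5 alpha and delta cell markers, Sst and Hhex, rose (median 0.27). CPM values are shares of a library, and whether the fall of beta cell transcripts had a part in the endothelial values was not tested. With the 20 most abundant genes left out, 21 of the 32 endothelial genes were called higher, but that fit does not measure the share of beta cells.

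**Figure D4:**
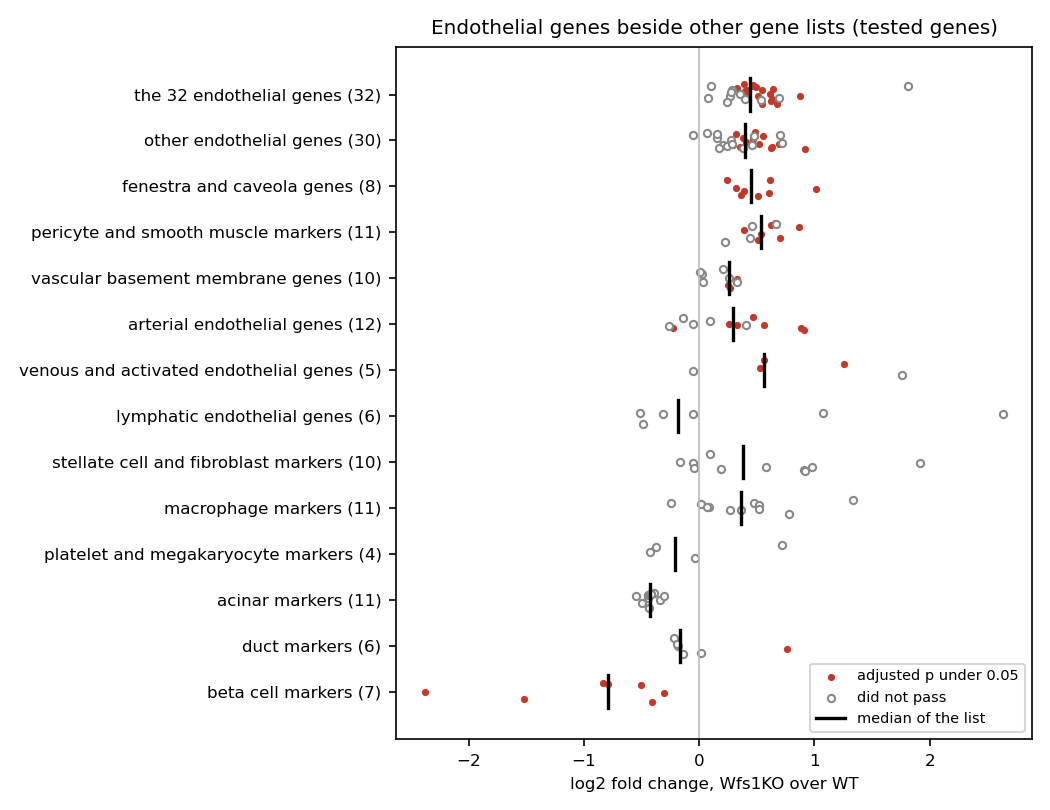
Log2 fold change of Wfs1KO over WT of every tested gene in the list of 32 endothelial genes and in other lists, called genes filled and genes that did not pass open, with a short vertical line at the median of each list. The medians of the endothelial genes (0.44), other endothelial genes (0.39), fenestra and caveola genes (0.45) and pericyte and smooth muscle markers (0.54) lie above 0. So do those of the basement membrane (0.26), arterial (0.30), venous and activated (0.56), stellate cell and fibroblast (0.38) and macrophage (0.37) lists. Those of the lymphatic (-0.18), platelet (-0.21), acinar (-0.43), duct (-0.16) and beta cell (-0.79) lists lie below 0.

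Of the 32 endothelial genes, 20 had in the authors' deposited table an adjusted p under 0.05, all with a positive log2 fold change. All 20 were among the 21 called here by edgeR. Erg was called here and did not pass there, with a log2 fold change of 0.33 and an adjusted p of 0.0544 in the authors' deposited table.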

How the data were processed

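RNA was sequenced from 8 islet samples, 4 Wfs1KO and 4 WT. Polyadenylated RNA was selected after collagenase digestion and a density gradient, per the labels' protocols. The submitters' processing notes name bcl2fastq, the aligner STAR 2.6.0a, the build mm10 and the counter HOMER 4.11.1. Per the file headers, exon reads were summed over the RefSeq transcripts of each gene with no strand option and left unnormalized, and what was deposited is thus raw counts. The authors further deposited a DESeq2 comparison, with log2 fold changes and p-values of their own, per the submitters' processing notes. Its log2 fold changes are of Wfs1KO over WT, the sign being the same for 292 of 292 genes with an edgeR adjusted p under 1e-4.

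The main tool was edgeR 4.0.16, run in R 4.3.3 (scaling by TMM, filterByExpr with a minimum count of 10 and minimum total of 15, robust quasi-likelihood fit, F-test), and 15733 of 24537 genes were tested. P-values were adjusted over all tested genes by Benjamini-Hochberg. The F statistic gave the SE of each log2 fold change (its size divided by the root of F). CPM values use TMM-scaled library sizes, ± is the SD over 4 libraries, and counting error is smallest for the deepest libraries. The fit was tested on simulated data.

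The members and all gene lists were chosen with earlier results of these data known, so lists are described by counts and medians and no test was made of a list. All 32 genes are accounted for, with values per library for those with the smallest adjusted p and the highest level per kilobase in each role group. From each other list the 3 called genes with the smallest adjusted p and the gene with the highest CPM, not corrected for length, were named, and further genes were named after their values were seen. Some genes that this rule takes are not reported here. Promoters are from RefSeq windows (GRCm38.p6), and exon overlaps from GENCODE M21.

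The labels do not say what the replicate numbers mark. Deviations from the genotype's mean were correlated between samples with the same number, over genes, which are not independent of each other. The correlations were 0.154, 0.444, 0.269 and 0.188. Some samples of different numbers correlated more, as Wfs1KO replicate 1 with WT replicate 2 (0.507) and Wfs1KO replicate 4 with WT replicate 3 (0.458). Whether the numbers pair the samples therefore cannot be told. The main fit used genotype only, and the replicate number entered as a block only among the alternatives. Alternatives were DESeq2 1.42.0, its size factors, limma-voom (limma 3.58.1) with quality weights, no scaling, 2 other filters, the 20 most abundant genes left out, 2 blocks, an acinar covariate, 2 subsets of replicates, 2 other thresholds, and each library left out in turn. Recounts of the other lists under these alternatives were added after seeing the data.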

Additional observations from a re-analysis of the deposited data

Results flagged for a closer look

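In groups of 4 libraries, a library was picked out where its gap to the nearest of the others was too large a part of the group's range by Dixon's 95% critical value. This was so in 11 of 116 groups of genes or list sums, and chance alone gives about 5% of groups.

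Among the endothelial genes, Wfs1KO replicate 1 was far above the other Wfs1KO libraries for S1pr1 (24.3 CPM), Flt4 (21.5 CPM) and Apold1 (10.9 CPM). Wfs1KO replicate 3 was far above the others for Clec14a (20.6 CPM), and Wfs1KO replicate 4 far below them for Nos3 (5.15 CPM). WT replicate 2 was far above the other WT libraries for Cldn5 (1.501 CPM).

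Among the sums, WT replicate 3 was picked out as the highest WT library for all 32 endothelial genes (1073 CPM, against 981 to 992 in the others). It was also the highest for the VEGF and angiopoietin receptors (420.1 CPM). WT replicate 2 was low for the fenestra and caveola genes (135 CPM). Wfs1KO replicate 2 was low for the arterial genes (229 CPM), and Wfs1KO replicate 3 high for the alpha and delta cell markers (27690 CPM).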

How the results depend on the processing

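Among 637 values of single endothelial genes under the alternatives, 602 kept their direction and their side of the threshold, 18 lost the call, 11 gained it and 6 changed sign. Of the 21 calls, 16 held under every alternative, and those of Erg, Sox18, Tie1, Mmrn2 and Esm1 did not. Signs changed for Apold1 (-0.047) with replicates 1 and 2 only and without WT replicate 4 (range with each library left out -0.0082 to 0.20), for Aplnr (-0.18), Vwf (-0.42) and Ctla2a (-0.17) with replicates 3 and 4 only, and for Vwf without Wfs1KO replicate 1 (range with each library left out -0.18 to 0.48). None of these was a call. The number of the 32 genes called higher was 20 with DESeq2, 22 with limma-voom, 24 with no scaling factor, 17 with replicates 3 and 4 only, 19 at an adjusted p under 0.01 and 19 to 21 with each library left out, and 0 were called lower under any of them. With the replicate number as a block 20 were called, beside 2932 of all tested genes, and the block changed no call of the 32 other than that of Erg. In the other lists the block ended the calls of Aqp1 (adjusted p = 0.110), Dll4 (0.0584), Lama4 (0.0665) and Spp1 (0.0559), and among the endothelial and basement membrane lists it added the calls of She, Col4a2 and Hspg2. Among all tested genes 2970 were called, against 2939 with replicates 1 and 2 only, 1846 with replicates 3 and 4 only (the cause was not tested), 1744 at an adjusted p under 0.01, and 2387 to 2734 with each library left out. No scaling factor moved the median of all tested genes to 0.11 and the median of the 32 to 0.54, and put 20.2% of all tested genes in the higher calls in place of 10.4%. The low genes Cldn5, Aplnr and Ecscr had few counts per library, so small changes of these were not detectable at this depth.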

Other observations

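For Cldn5, Vwf, Ctla2a and Ecscr, Wfs1KO replicates 1 and 2 were above Wfs1KO replicates 3 and 4. Many genes outside the 32 shared this pattern, among them Icam1, Selp, Gja5, Pdpn and Ccl21a. The first principal component parted the same replicates over all tested genes. The genes given here were chosen after their values were seen. Vcam1, an adhesion molecule of activated endothelium, had 28.2, 13.2, 4.79 and 4.998 CPM in Wfs1KO replicates 1 to 4, against 3.68, 7.39, 2.701 and 1.67 CPM in WT replicates 1 to 4. Wfs1KO replicate 1 was the highest, while WT replicate 2 was above Wfs1KO replicates 3 and 4. Mmrn1, a multimerin of lymphatic endothelium and platelets, had 6.76, 2.23, 0.173 and 0.891 CPM in Wfs1KO islets, against 0.263, 0.7504, 0.405 and 0.245 CPM in WT islets. Aqp1, a water channel of capillaries, had 8.86, 5.61, 2.83 and 4.45 CPM in Wfs1KO islets, against 1.89, 2.83, 2.701 and 3.44 CPM in WT islets. In both genes Wfs1KO replicate 1 was again the highest library.

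Of the fibroblast and macrophage markers, Dcn and Mrc1 were high in the same library, and they too were chosen after their values were seen. Most other genes of these lists, such as Pdgfra, Lum, Postn, Ptprc, Csf1r and Lyz2, were also highest in Wfs1KO replicate 1. The exceptions were Col1a1, Col1a2, Col3a1, Pi16, C1qa and Cd14, which were highest in a WT library. Dcn (decorin), a proteoglycan of connective tissue, had 45.1, 28.2, 3.64 and 7.13 CPM in Wfs1KO islets, against 3.73, 5.89, 4.73 and 8.197 CPM in WT islets. Mrc1 (CD206), a receptor of tissue macrophages, had 11.9, 5.66, 1.44 and 2.28 CPM in Wfs1KO islets, against 1.63, 3.06, 2.499 and 1.52 CPM in WT islets. Wfs1KO replicates 1 and 2 were the highest 2 libraries for both genes, and replicates 3 and 4 lay near the WT values. Neither Dcn (adjusted p = 0.188) nor Mrc1 (adjusted p = 0.254) passed edgeR's quasi-likelihood test with Benjamini-Hochberg adjustment. Without Wfs1KO replicate 1, 19 of the 32 endothelial genes were called higher. That fit keeps Wfs1KO replicate 2, and the part of fibroblasts and macrophages in the endothelial values was not tested by it.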
